A study of Drosophila melanogaster with 6 samples.

Results

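Mitochondria carry their own ribosome, which translates the few messenger RNAs of the mitochondrial genome (mtDNA), most of them for core subunits of the respiratory chain. Its RNAs come from mtDNA, but its proteins are encoded in the nucleus, made in the cytosol and imported. Some of these proteins descend from the bacterial ribosome and others are found in mitochondria only. In flies their genes are named mRpL (large subunit, which forms the peptide bonds) and mRpS (small subunit, which reads the messenger RNA).

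The genes described here are those whose symbol starts with mRpL or mRpS in the deposited gene names, joined to the deposited read counts by FlyBase identifier. They number 73 of the 17494 genes counted, 47 mRpL and 26 mRpS. All 73 passed the filter on low counts, with 725 counts or more in every library, so each member could be tested. Of the members, 72 joined by identifier, and mRpS5 joined by coordinates because its identifier had changed.

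The libraries were made from polyA RNA of the dorsolongitudinal flight muscle of pupae of Drosophila melanogaster at 64 h APF (after puparium formation), kept at 25 °C. The M1BP RNAi group (3 libraries) carried the muscle driver Mef2-GAL4 and a UAS-M1BP RNAi transgene against M1BP, a zinc finger factor that binds promoters of broadly expressed genes. The WT group (3 libraries) carried Mef2-GAL4 with no RNAi transgene. Each library pooled hand-dissected muscle of 6 to 8 pupae, and per the study's methods the RNAi line was the weaker of its 2 lines, so the knockdown is partial and acts in all muscle in which the driver is active. In such bulk samples, fewer cells of a type and less RNA per cell cannot be told apart.

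M1BP itself was examined first. It had 3.00, 3.57 and 2.63 CPM (read counts scaled to library size, with TMM factors) in M1BP RNAi, against 8.19, 6.97 and 8.83 CPM in WT, a log2 fold change of -1.38 ± 0.15 (SE, adjusted p = 0.000954 by edgeR's quasi-likelihood test). The libraries held 42215400 to 43136388 counts in M1BP RNAi and 43017456 to 54890681 in WT. Genes of mtDNA took 19.4% ± 4.18 of the counts in M1BP RNAi and 32.2% ± 10.4 in WT (SD, n = 3 each; exact permutation p = 0.1, two-sided, the smallest that 3 against 3 can give). The muscle genes Act88F, fln, TpnC4 and Mhc summed to 71442 to 74877 CPM in M1BP RNAi and 99862 to 114802 CPM in WT. Of these, Mhc alone had a mean of 39484.5 CPM in M1BP RNAi and 55364.1 CPM in WT. WT replicate 3 stood apart on the second principal component, at -47.6 where the other libraries lay between -5.84 and 22.1. It also differed from the other WT libraries in roX1, a long noncoding RNA of male dosage compensation, which had 30.7, 30.2 and 63.1 CPM in M1BP RNAi and 0.0414, 0.206 and 22.3 CPM in WT.

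Few members passed the threshold for a call. Calls required a change of 1.5-fold or more together with an adjusted p of at most 0.001. Under this rule 3 of 73 members fell in M1BP RNAi, beside 2.88% of all 8806 genes tested, and 0 rose, beside 2.20% of all genes. At an unadjusted p of 0.05 (edgeR), 23 members were lower and 6 higher, beside 1982 lower and 1667 higher of the 8806 genes tested. DESeq2 was given the counts of all 17494 genes, without edgeR's filter on low counts. It called 4 of the 73 members lower and 0 higher, beside 477 lower and 572 higher over all genes. The 3 that fell, mRpL34, mRpL50 and mRpL33, all encode proteins of the large subunit. The median log2 fold change was -0.11 over the 73 members and -0.016 over all genes tested, and 50 members lay below 0 and 23 above.

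mRpL34 (FBgn0083983, dm6 chromosome 2R, 16098948 to 16099337, plus strand, 327 bases of exon), a small protein with a bacterial counterpart, changed the most. It had 13.1, 16.4 and 15.2 CPM in M1BP RNAi, against 50.6, 60.6 and 47.4 CPM in WT. The highest M1BP RNAi library lay far below the lowest WT library. The log2 fold change was -1.83 ± 0.13 (SE, adjusted p = 0.000168, edgeR), a level 0.282 times that of WT. Its exons share 32 bases with CG8414 on the other strand.

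mRpL50 (FBgn0028648, 3L, 7243080 to 7243933, minus strand, 739 bases of exon) encodes a large subunit protein that has no bacterial counterpart. Its levels were 24.8, 27.1 and 27.8 CPM in M1BP RNAi and 66.6, 70.1 and 71.9 CPM in WT. The 2 groups were tight and well separated. The log2 fold change was -1.39 ± 0.077 (SE, adjusted p = 7.09e-05, edgeR), or 0.382 times WT. Its exons share 60 bases with Neos on the other strand.

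mRpL33 (FBgn0040907, X, 4321764 to 4322231, minus strand, 349 bases of exon), another small protein of bacterial descent, fell less. It had 22.5, 23.1 and 24.0 CPM in M1BP RNAi, against 39.2, 40.7 and 37.5 CPM in WT, again without overlap. Its log2 fold change was -0.75 ± 0.071 (SE, adjusted p = 0.000546, edgeR), or 0.593 times WT.

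The next in size, mRpL55 (FBgn0038678, 3R, 19094394 to 19094905, minus strand), encodes a large subunit protein whose mammalian form descends from bacterial L31. It had 54.9, 62.1 and 67.0 CPM in M1BP RNAi and 97.1, 106 and 104 CPM in WT. The groups did not overlap, and the log2 fold change of -0.74 ± 0.092 (SE) missed the threshold with an adjusted p of 0.00161 (edgeR).

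**Figure D1:**
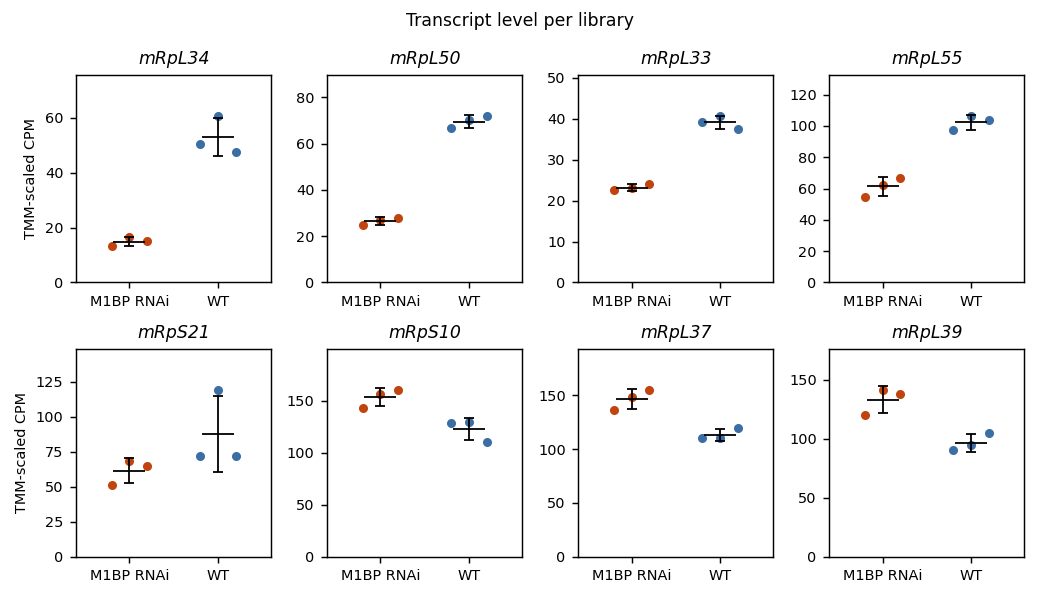
TMM-scaled CPM (vertical axis, from 0, scaled per gene) of 8 members, with 1 point per library (M1BP RNAi in red on the left, WT in blue on the right) and the mean with SD as a black bar (n = 3 each). For mRpL34 the M1BP RNAi libraries lie at 13.1 to 16.4 CPM, below the WT libraries at 47.4 to 60.6 CPM, and for mRpS21 the WT spread comes from replicate 2 at 119 CPM.

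The size of these changes held when single libraries were left out, but not each call. Over the 6 fits that leave out a library, the log2 fold change lay between -1.91 and -1.70 for mRpL34, between -1.43 and -1.31 for mRpL50 and between -0.78 and -0.71 for mRpL33. mRpL50 lost its call only without M1BP RNAi replicate 2 (adjusted p = 0.00130, edgeR). mRpL34 lost it without WT replicate 1 (adjusted p = 0.00124, edgeR) and without any of M1BP RNAi replicates 1, 2 or 3 (adjusted p of 0.00131, 0.00157 and 0.00203, edgeR). mRpL33 kept it only without WT replicate 3 (adjusted p = 0.000730, edgeR), and without each other library its adjusted p was 0.00261 to 0.00667 (edgeR).

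At a looser threshold, which asked only for an adjusted p of at most 0.05, 20 of 73 members were lower and 4 higher in M1BP RNAi, beside 16.9% and 13.8% of all genes. As shares these are 27.4% lower and 5.48% higher. In CPM, 29 members had every M1BP RNAi library below every WT library, beside 25.0% of all genes, and 7 had every one above, beside 21.5%. The 95% confidence interval of the log2 fold change lay wholly within a 1.5-fold change either way for 56 of the 73 members (76.7%), beside 37.0% of all genes tested. The interval reached past 1.5-fold for 17 members, mRpL34 and mRpL50 among them with intervals wholly beyond it. The SE of a member's log2 fold change ranged from 0.060 to 0.22, with a median of 0.088.

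**Figure D2:**
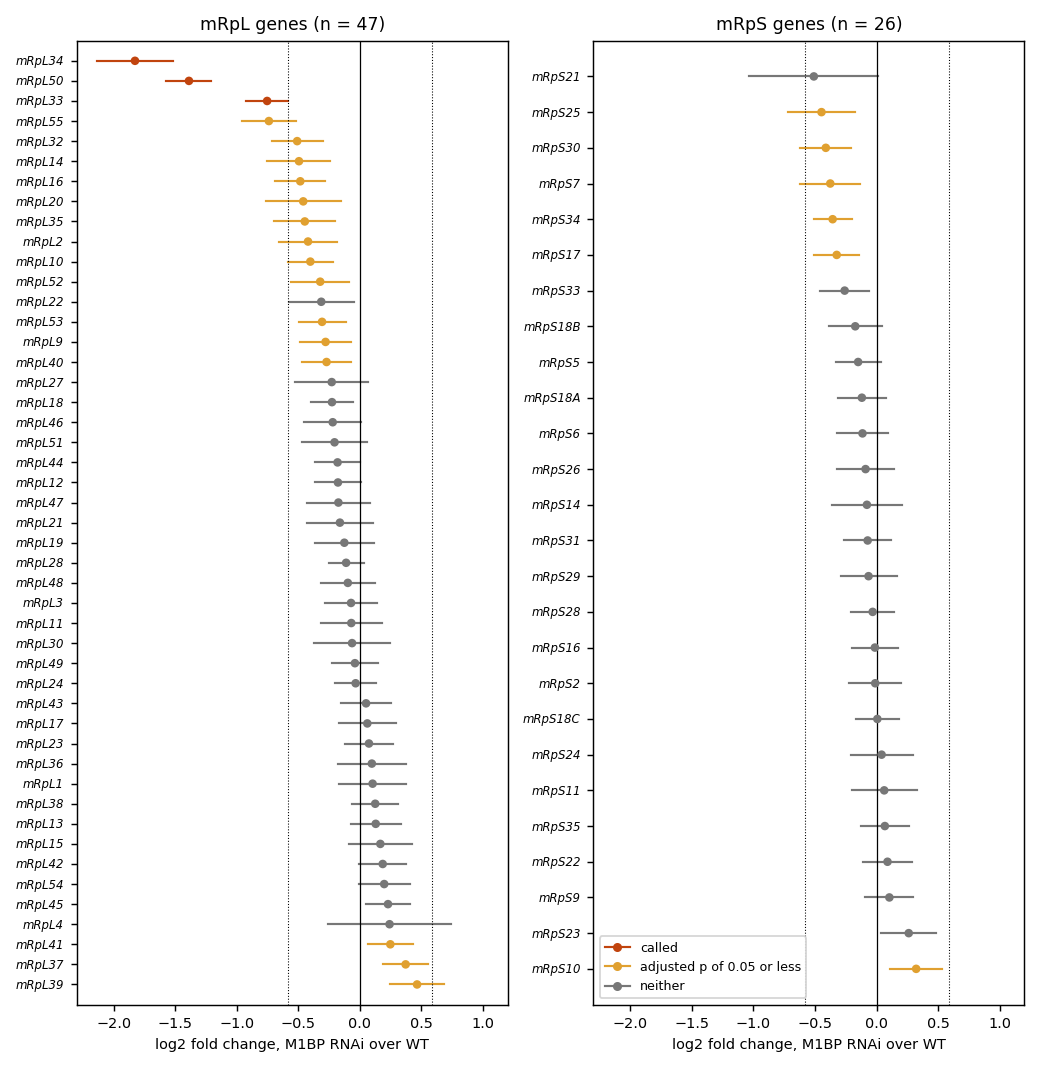
log2 fold change of M1BP RNAi over WT (horizontal axis; points) with its 95% confidence interval (lines) for each of the 47 mRpL genes (left) and 26 mRpS genes (right), ordered by value. Dotted lines mark a 1.5-fold change, mRpL34, mRpL50 and mRpL33 (red) were called, and 56 of the 73 intervals lie between the dotted lines.

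The subunits were compared side by side. Of the 47 mRpL genes 3 (6.38%) were called lower, and of the 26 mRpS genes 0, beside 2.88% of all genes. By edgeR, 6 of the 26 mRpS genes were lower and 2 higher at an unadjusted p of 0.05, beside 1982 lower and 1667 higher of the 8806 genes tested. DESeq2 called 0 mRpS genes, beside 477 lower and 572 higher over all genes. At the looser threshold 15 mRpL genes (31.9%) and 5 mRpS genes (19.2%) were lower, beside 16.9% of all genes. At the same threshold 3 mRpL genes (6.38%) and 1 mRpS gene (3.85%) were higher, beside 13.8% of all genes. The median log2 fold change was -0.16 for mRpL and -0.076 for mRpS. The middle 50% of values lay between -0.32 and 0.085 for mRpL and between -0.24 and 0.032 for mRpS, so the distributions overlapped for most of their range. Whether the subunits differ was not tested, since the genes of a subunit are not replicates.

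Among the mRpS genes the lowest values belonged to mRpS21, mRpS25 and mRpS30. mRpS21, which has a bacterial counterpart, had 51.5, 68.5 and 64.5 CPM in M1BP RNAi and 72.0, 119 and 72.1 CPM in WT. WT replicate 2 alone was high, and the log2 fold change of -0.51 ± 0.22 (SE, adjusted p = 0.130, edgeR) was -0.21 without it (adjusted p = 0.281, edgeR). mRpS25 and mRpS30, both X-linked, had log2 fold changes of -0.45 ± 0.11 and -0.41 ± 0.087 (SE, adjusted p of 0.0247 and 0.0131, edgeR).

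mRpS30 is the longest member (2078 bases of exon). The protein of its mammalian counterpart sits in the large subunit, as does that of mRpS18A, whose log2 fold change was -0.12 ± 0.083 (SE, adjusted p = 0.330, edgeR). Both genes were counted with the mRpS genes in the comparison of subunits, which goes by symbol.

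The highest values were smaller than the lowest ones. mRpL39 had 121, 141 and 138 CPM in M1BP RNAi and 90.5, 94.6 and 105 CPM in WT, a log2 fold change of 0.46 ± 0.092 (SE, adjusted p = 0.0104, edgeR). mRpL37 had 136, 149 and 154 CPM in M1BP RNAi and 110, 110 and 119 CPM in WT, a log2 fold change of 0.37 ± 0.076 (SE, adjusted p = 0.0116, edgeR). Neither overlapped between the groups, and both proteins are particular to mitochondria.

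mRpL41, a further protein without a bacterial counterpart, had a log2 fold change of 0.25 ± 0.076 (SE, adjusted p = 0.0481, edgeR). Among the mRpS genes the highest were mRpS10, at 143, 156 and 160 CPM in M1BP RNAi and 128, 129 and 110 CPM in WT, then mRpS23 and mRpS9. Their log2 fold changes were 0.32 ± 0.088, 0.26 ± 0.094 and 0.10 ± 0.082 (SE, adjusted p of 0.0328, 0.0796 and 0.393, edgeR). In mRpL4, chosen after its values were seen, a single library set the value. It had 95.8, 114 and 108 CPM in M1BP RNAi and 102, 106 and 60.9 CPM in WT, where replicate 3 alone was low, and its log2 fold change was 0.24 ± 0.21 (SE, adjusted p = 0.438, edgeR) with all libraries, 0.075 without that one and 0.89 with the roX1 level as a covariate (adjusted p = 0.0122, edgeR).

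Descent was described in the same way. Members were first split by number, at L36 and S21, into 42 and 31 genes. The split by number misplaces mRpL47, mRpL55, mRpS24 and mRpS28, whose mammalian proteins have bacterial counterparts, and these were moved after the data were seen. Of the 46 members with bacterial counterparts 13 (28.3%) were lower and 1 (2.17%) higher at the looser threshold, and of the 27 particular to mitochondria 7 (25.9%) were lower and 3 (11.1%) higher, beside 16.9% lower and 13.8% higher over all genes. The median log2 fold change was -0.12 for the first set and -0.073 for the second, under either split. The 3 mRpL genes that were higher, mRpL37, mRpL39 and mRpL41, were all in the second set, and 0 of the 30 mRpL genes with bacterial counterparts were higher.

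Several working parts of the large subunit were followed. The stalk, which recruits translation factors to the ribosome, includes mRpL10, mRpL11 and mRpL12. mRpL10 had a log2 fold change of -0.40 ± 0.078 (SE, adjusted p = 0.00932, edgeR) without overlap between groups, at 66.8, 72.4 and 77.0 CPM in M1BP RNAi and 90.9, 96.5 and 98.3 CPM in WT. mRpL12 and mRpL11 had values of -0.18 ± 0.077 and -0.070 ± 0.10 (SE, adjusted p of 0.133 and 0.663, edgeR).

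Around the exit of the tunnel through which the new peptide leaves, the log2 fold changes of mRpL22, mRpL47, mRpL24, mRpL23 and mRpL45 ran from -0.31 to 0.23, with a median of -0.035. All 5 intervals lay within a 1.5-fold change, beside 37.0% of those of all genes tested. Of the 5, 0 passed an adjusted p of 0.05 (edgeR, 2 had an unadjusted p under 0.05). In the central protuberance, the crown of the large subunit, mRpL18, mRpL27, mRpL38, mRpL40, mRpL46 and mRpL48 had a median of -0.22. Of these 6, mRpL40 alone passed an adjusted p of 0.05, with -0.27 ± 0.084 (SE, adjusted p = 0.0493, edgeR), and mRpL38 alone lay above 0, at 0.12 ± 0.078 (SE).

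Levels of different genes were compared per kilobase of exon. In WT the members spread over a 6.09-fold range, with a median of 129 CPM per kb. In M1BP RNAi the range was 9.59-fold and the median 113 CPM per kb. The SD of log2 CPM per kb across members was 0.57 in M1BP RNAi and 0.51 in WT.

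The most abundant member in WT was mRpL12 of the stalk, with 335 ± 27.5 CPM per kb in M1BP RNAi and 379 ± 7.33 CPM per kb in WT (SD, n = 3). mRpL42 followed, with 345 ± 29.6 CPM per kb in M1BP RNAi and 303 ± 7.21 CPM per kb in WT (SD, n = 3). The 2 genes differed by more than their spread in WT but not in M1BP RNAi. Then came mRpL52, at 204 ± 19.6 CPM per kb in M1BP RNAi and 255 ± 20.4 CPM per kb in WT, which in WT did not differ from mRpL24 (243 ± 13.4 CPM per kb in M1BP RNAi and 249 ± 9.86 in WT) beyond the spread.

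The lowest mRpL genes in WT were mRpL21 (55.6 ± 6.11 CPM per kb in M1BP RNAi and 62.2 ± 6.32 in WT), mRpL17 (75.6 ± 5.91 in M1BP RNAi and 72.5 ± 6.74 in WT) and mRpL11 (69.2 ± 6.94 in M1BP RNAi and 72.7 ± 6.18 in WT). mRpL17 and mRpL11 lay within each other's spread. Among the mRpS genes, mRpS9 led with 253 ± 9.44 CPM per kb in M1BP RNAi and 235 ± 20.1 in WT, followed in WT by mRpS21 (129 ± 18.7 in M1BP RNAi and 184 ± 56.7 in WT) and mRpS17 (126 ± 6.36 in M1BP RNAi and 157 ± 10.3 in WT). The spread of mRpS21 in WT did not separate it from mRpS9 or mRpS17. mRpS23, mRpS31 and mRpS34 were the lowest mRpS genes in WT. Their means were 92.5, 81.7 and 69.3 CPM per kb in M1BP RNAi and 77.2, 86.0 and 88.7 CPM per kb in WT.

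The called members moved down this order. mRpL34 ranked 72 of 73 in M1BP RNAi and 16 in WT. mRpL50 was the lowest of all, rank 73, in M1BP RNAi, with rank 59 in WT, and mRpL33 ranked 70 in M1BP RNAi and 47 in WT. mRpL55 ranked 22 in M1BP RNAi and 7 in WT.

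**Figure D3:**
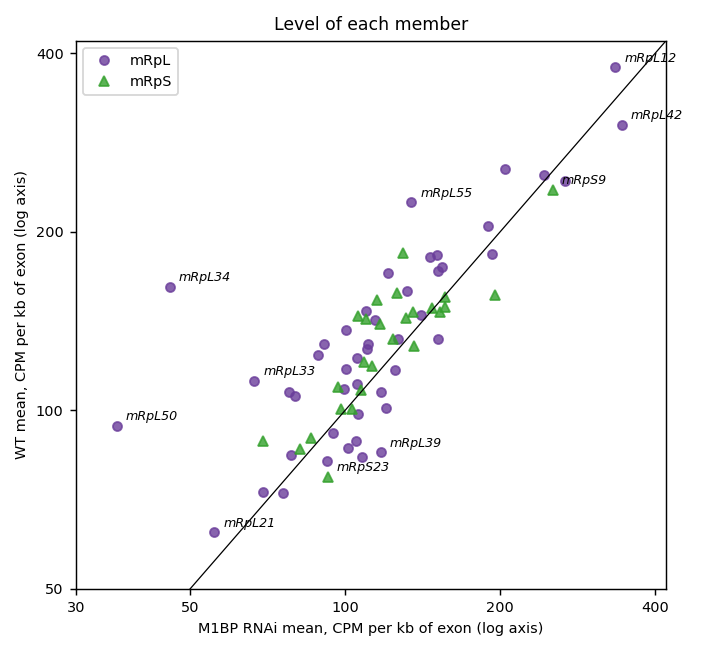
Mean level of each member in M1BP RNAi (horizontal) against WT (vertical), in TMM-scaled CPM per kb of exon on log axes, with mRpL genes as circles and mRpS genes as triangles (1 point per gene, n = 3 libraries per mean) and a line of equal levels. Most points lie near the line, with mRpL12 and mRpL42 at the top, while mRpL34 (45.6 CPM per kb in M1BP RNAi, 162 in WT) and mRpL50 (35.9 in M1BP RNAi, 94.1 in WT) stand off to the left.

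The mean level of the mRpL genes was set against that of the mRpS genes within each library. The ratio was 1.02, 1.02 and 1.03 in M1BP RNAi and 1.06, 1.06 and 1.08 in WT, with means of 1.02 ± 0.0063 in M1BP RNAi and 1.07 ± 0.0122 in WT (SD, n = 3). The groups did not overlap. The ratio of medians did overlap and ran the other way on average, with 0.932, 0.912 and 0.952 in M1BP RNAi and 0.903, 0.939 and 0.897 in WT. With mRpS30 and mRpS18A moved to the large subunit, the ratio of means was 1.02 ± 0.0055 in M1BP RNAi and 1.08 ± 0.016 in WT (SD, n = 3). The mRpL means include mRpL34, mRpL50 and mRpL33, which were called lower, and their part in the ratio was not tested. The ratios describe the libraries, with no test.

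Libraries of the same group differed in the members as a whole. In M1BP RNAi, replicate 1 had the lowest value of its group for 72 of the 73 members, while it was the lowest for 41.0% of all genes tested. Under median-of-ratios scaling, an alternative added after the data were seen, the count was again 72, beside 44.3% of all genes. The summed level of the 73 members was 7255, 8141 and 8422 CPM in M1BP RNAi and 8279, 8737 and 8707 CPM in WT, so the groups overlapped.

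Relative to the WT mean, the median member of the M1BP RNAi libraries stood at -0.25, -0.061 and -0.038 on the log2 scale, and that of the WT libraries at -0.062, 0.018 and 0.038. Without M1BP RNAi replicate 1 the median log2 fold change of the members was -0.054, with -0.088 for mRpL and -0.0014 for mRpS, beside -0.042 over all genes. Without WT replicate 3 it was -0.032, with -0.085 for mRpL and -0.0058 for mRpS, beside 0.031 over all genes.

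M1BP RNAi replicate 1 also differed in its markers of tubular muscle, the type of the leg and jump muscles. Act79B and TpnC41C summed to 1301, 119 and 128 CPM in M1BP RNAi and to 960, 480 and 405 CPM in WT. Neither gene was at 0 in any library. Libraries of both groups also differed in the fat body markers Lsp2, Fbp1 and apolpp. These summed to 236, 202 and 134 CPM in M1BP RNAi and to 82.2, 225 and 62.8 CPM in WT. The part of these differences in the members' levels was not tested.

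**Figure D4:**
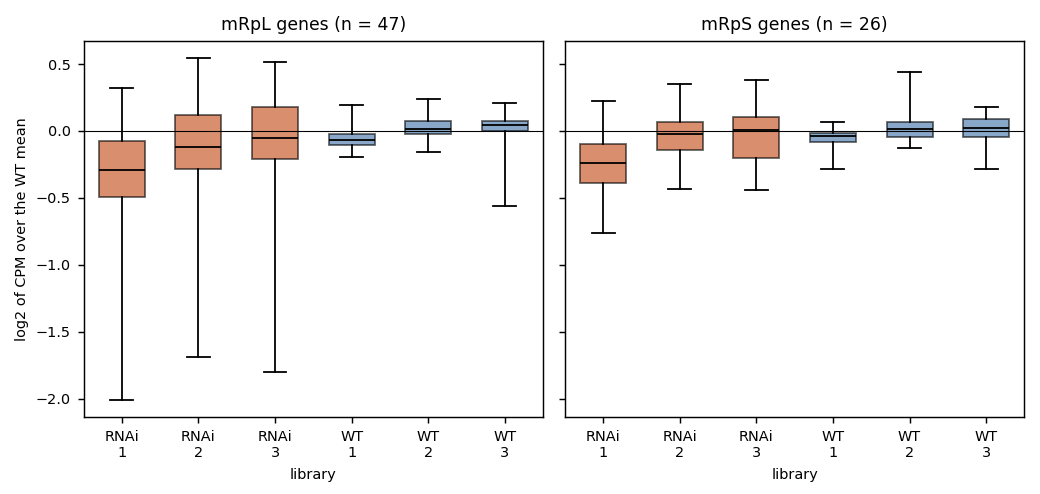
log2 of each member's CPM over its WT mean (vertical axis) by library, with M1BP RNAi in red and WT in blue, for 47 mRpL genes (left) and 26 mRpS genes (right). Boxes span the middle 50% of genes with the median as a line, and whiskers reach the lowest and highest gene, and the box of M1BP RNAi replicate 1 lies lowest in both panels.

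The 11 X-linked members had a median log2 fold change of -0.31, and 5 of them were lower and 0 higher at the looser threshold. The 62 autosomal members had a median of -0.10, with 15 lower and 4 higher. As shares these are 45.5% lower on X, and 24.2% lower and 6.45% higher on the autosomes. Over all genes tested, 15.0% were lower and 13.1% higher on X, and 17.4% lower and 13.8% higher on the autosomes, with medians of -0.0085 for X and -0.017 for the autosomes.

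X-linked members at the looser threshold were mRpL33, mRpL14, mRpL16, mRpS25 and mRpS30. With the roX1 level as a covariate in the fit the medians were -0.51 for the X-linked members and -0.18 for the autosomal ones, and without WT replicate 3 they were -0.19 and -0.0092. In the fit with roX1, only mRpL50 remained called, and mRpL34 and mRpL33 had log2 fold changes of -1.65 and -0.70 (adjusted p of 0.00125 and 0.00617, edgeR). Each M1BP RNAi library had more roX1 than any WT library, so roX1 level and group cannot be fully told apart in this fit. The sex of the pooled pupae is not stated in the sources used here.

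The called members mRpL34 and mRpL33 are short transcripts. Of the 12 members under 600 bases of exon 2 were called lower and the median log2 fold change was -0.19, while of the 61 longer ones 1 was, with a median of -0.098. Among all genes tested, 338 were under 600 bases, of which 4.14% were called lower with a median of -0.022, beside 2.83% and -0.015 for the longer ones. Across the 73 members, log2 fold change and exon length had a Spearman correlation of 0.24, and log2 fold change and abundance also 0.24, while over all 8806 genes these were -0.11 and -0.27. The points share the same 6 libraries.

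Many members lie head to head with a neighbour, with starts at most 500 bases apart on opposite strands. This held for 52 of the 73 members (71.2%), beside 37.7% of all genes tested. The neighbour was tested in 49 pairs, of which 4 neighbours rose and 0 fell, beside 2.20% and 2.88% of all genes. The neighbour moved in the member's direction in 32 of the 49 pairs, and across pairs the log2 fold changes had a Spearman correlation of 0.22. Of the 52 members with such a neighbour 13 (25.0%) were lower at the looser threshold, and of the 21 without 7 (33.3%) were, beside 16.9% of all genes.

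The neighbours that rose were Nop60B, Ns1, Art3 and Prosbeta2, while the members beside them were not called. Nop60B, the fly pseudouridine synthase of the nucleolus, starts 436 bases from mRpS17 and had 14.4 ± 3.15 CPM in M1BP RNAi and 2.92 ± 0.394 CPM in WT (SD, n = 3), which gave a log2 fold change of 2.30 ± 0.19 (SE, adjusted p = 0.000351, edgeR). mRpS17 itself had -0.32 ± 0.077 (SE, adjusted p = 0.0204, edgeR), in the opposite direction. Ns1, a nucleostemin, starts 57 bases from mRpS11 and had 1.04 ± 0.11 (SE, adjusted p = 0.000747, edgeR), beside 0.061 ± 0.11 (SE, adjusted p = 0.722, edgeR) for mRpS11.

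Art3, an arginine methyltransferase gene, lies beside mRpS10 and had 1.69 ± 0.13 (SE, adjusted p = 0.000282, edgeR). Prosbeta2, a catalytic subunit of the proteasome, lies beside mRpL39 and had 0.80 ± 0.073 (SE, adjusted p = 0.000489, edgeR). Both members, mRpS10 and mRpL39, were also higher at the looser threshold.

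Each called member had a neighbour that was not called. Dg, the dystroglycan gene 384 bases from mRpL34, had 58.4 ± 2.24 CPM in M1BP RNAi and 54.1 ± 4.79 CPM in WT (SD, n = 3), which gave a log2 fold change of 0.11 ± 0.085 (SE, adjusted p = 0.389, edgeR). norpA, the phospholipase C of phototransduction, lies 395 bases from mRpL33 and had -0.21 ± 0.23 (SE, adjusted p = 0.536, edgeR). mei-P22, a meiotic gene 455 bases from mRpL50, was barely expressed, at 0.378 ± 0.157 CPM in M1BP RNAi and 0.0734 ± 0.0692 CPM in WT (SD, n = 3).

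The exons of 3 members overlap another gene on the same strand, so their counts are shared or uncertain. These are mRpL13 with CG10602 (236 bases), mRpL53 with CG33155 (all 829 bases of mRpL53) and mRpS14 with CG32533 (30 bases). Their log2 fold changes were 0.13 ± 0.085, -0.31 ± 0.080 and -0.079 ± 0.12 (SE, adjusted p of 0.307, 0.0275 and 0.670, edgeR). On the opposite strand, exons of 42 members overlap another gene, for 7 of them by more than 100 bases. Among these are mRpS21 with CG8870 (228 bases) and mRpS9 with ArgRS-m (325 bases). The strand setting of the counts is not given, so these counts may be shared too.

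Some mitoribosomal proteins have other gene names. tko, the small subunit protein S12, had 142, 165 and 167 CPM in M1BP RNAi and 145, 178 and 159 CPM in WT, a log2 fold change of -0.021 ± 0.10 (SE, adjusted p = 0.906, edgeR). bonsai, the small subunit protein S15, had 121, 132 and 143 CPM in M1BP RNAi and 167, 166 and 158 CPM in WT, without overlap, and -0.31 ± 0.079 (SE, adjusted p = 0.0265, edgeR). CRIF, whose mammalian counterpart is in the large subunit, had 0.20 ± 0.089 (SE, adjusted p = 0.137, edgeR).

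The counts of the ribosomal RNAs of mtDNA went in opposite directions at the looser threshold. The libraries were made from polyA RNA, so these counts may not follow the amounts of the ribosomal RNAs themselves. The large one also overlaps trnL2 and trnV on the same strand. The large one, lrRNA, had 65816, 101097 and 79768 CPM in M1BP RNAi and 182444, 398358 and 172216 CPM in WT, a log2 fold change of -1.61 ± 0.35 (SE, adjusted p = 0.0151, edgeR). The small one, srRNA, had 261, 805 and 591 CPM in M1BP RNAi and 28.1, 43.8 and 42.6 CPM in WT, a log2 fold change of 3.86 ± 0.44 (SE, adjusted p = 0.00115, edgeR). Neither was called.

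Among 8 factors of mitochondrial translation, 1 was called, mEFG1, the elongation factor that moves the ribosome along the messenger RNA. It had 97.7, 101 and 97.0 CPM in M1BP RNAi and 161, 149 and 155 CPM in WT, a log2 fold change of -0.65 ± 0.062 (SE, adjusted p = 0.000577, edgeR). At the looser threshold 4 of the 8 were lower and 0 higher, with a median of -0.26 over the list. Of 7 factors of mitochondrial transcription 0 were called (edgeR, 4 had an unadjusted p under 0.05), 2 were lower at the looser threshold and the median was -0.14.

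Beside these, 70 of the 81 cytosolic ribosomal protein genes tested (86.4%) were lower at the looser threshold and 15 were called lower, and their median log2 fold change was -0.44. Of the 73 structural subunits of oxidative phosphorylation (OXPHOS) on a list given by the study, 49 (67.1%) were lower at the looser threshold and 4 were called lower, with a median of -0.31. The mRp genes had 27.4% lower and a median of -0.11. These shares stand side by side as a description, and the difference between the lists was not tested.

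**Figure D5:**
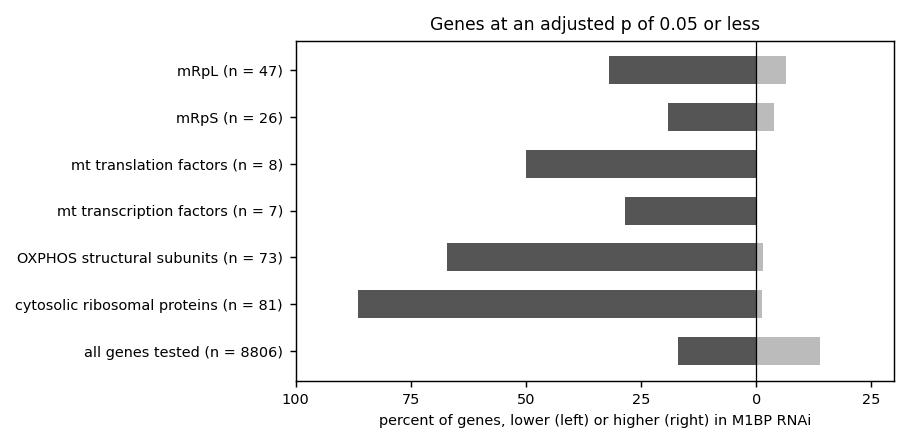
Percent of the tested genes of each list (rows, with the number tested) that were lower (dark bars, left of 0) or higher (light bars, right of 0) in M1BP RNAi at an adjusted p of 0.05 or less by edgeR. mRpL and mRpS genes, at 31.9% and 19.2% lower, lie between all genes (16.9%) and the OXPHOS subunits (67.1%) and cytosolic ribosomal proteins (86.4%).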

How the data were processed

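RNA sequencing of 6 libraries was used. The authors deposited raw read counts per gene from uniquely mapped reads on dm6 (their notes name Subread 2.0.3 and featureCounts). The strand setting is not given in the sources used here. A deposited table of their own comparison was used for gene symbols only, and its fold changes and p-values were not used. The thresholds for a call followed the study's methods. Counts were tested with edgeR 4.0.16 (R 4.3.3) by the quasi-likelihood test with TMM scaling, edgeR's filter on low counts (8806 genes kept) and Benjamini-Hochberg adjustment over all of them. The SE is the log2 fold change over the root of F. The code was tested on simulated data. Per the study's methods, each group had independent biological replicates from separate RNA preparations. Overlaps and neighbouring starts came from the exon coordinates deposited with the counts. The Ensembl annotation of the same assembly gave the span by which mRpS5 was joined.

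The members, lists and tests were chosen with earlier results of these data known. Named were M1BP, members called, or past 1.5-fold at an adjusted p of 0.05, the 3 largest rises and falls of each subunit where log2 CPM averaged at least 4, the 3 highest and lowest levels per subunit, members overlapping a gene on the same strand, pairs of neighbouring starts with a called gene, stalk, tunnel and protuberance members, called factors, and tko, bonsai and CRIF. Alternatives were DESeq2 1.42.0, RLE scaling, other filters and thresholds, leaving out mtDNA genes, overlapping members or each library, a replicate block and a roX1 covariate. A planned count of promoter motifs was not run, because no promoter sequence was used here.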

Additional observations from a re-analysis of the deposited data

How the results depend on the processing

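The count of members called lower was 3, and it was 1 with roX1 as a covariate, 20 once only an adjusted p of at most 0.05 was asked for (4 higher), and 0 to 3 when a library was left out. For mRpL genes these counts were 1, 15 (3 higher) and 0 to 3, and for mRpS genes 5 were lower and 1 higher with no fold minimum. The count of 0 came without M1BP RNAi replicate 2, where mRpL50, mRpL34 and mRpL33 had adjusted p of 0.00130, 0.00157 and 0.00667 (edgeR). The median over all members stayed below 0 in all 13 alternative fits. The medians over all members, mRpL and mRpS each moved by less than the 0.0912 spread between libraries. The median of the X-linked members moved by more, from -0.31 to -0.51 with roX1 as a covariate and to -0.19 without WT replicate 3.

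Over all genes, 254 were called lower and 194 higher. DESeq2 called 477 lower and 572 higher, the fit with roX1 128 and 44, no fold minimum 1489 and 1212, an adjusted p of 0.05 with 1.5-fold 668 and 857, and leaving out a library 44 to 231 lower and 26 to 246 higher. The median over all genes was 0.080 with DESeq2 and also 0.080 without a filter. The ratio of mRpL to mRpS levels was 0.932 in M1BP RNAi and 0.913 in WT by medians. Whether the replicate numbers pair the libraries was not settled. Same-numbered libraries had correlations of 0.307, -0.0436 and 0.268 between their deviations from the group means. Those of differently numbered libraries ran from -0.363 to 0.230. With the replicate number as a block 116 genes were called lower and 75 higher, and mRpL33 had an adjusted p of 0.00289 (edgeR).

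Members near 0 changed sign. With roX1 as a covariate mRpL13 stood at -0.0021, mRpL17 at -0.11, mRpL23 at -0.012, mRpS11 at -0.19 and mRpS14 at 0.0028. Without mtDNA genes mRpL24 stood at 0.0025. When single libraries were left out, mRpL24 lay between -0.071 and 0.014, mRpL11 between -0.12 and 0.041, mRpS14 between -0.15 and 0.048 and mRpS11 between -0.016 and 0.21. Counts of promoter motifs were not run. With 3 libraries a group, a member that was not called may still have changed, and intervals cover the spread between these libraries only.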
